A study of Mus musculus with 10 samples.

Results

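The genes described here are 10 markers of endothelial cells, the cells that line blood vessels. They are Cldn5, Kdr, Cd34, Emcn, Pecam1, Cdh5, Tek, Tie1, Flt1 and Esam, chosen by name from the 19938 genes that had a probe set of their own on the array, and all 10 were measured, each by 1 probe set. Gene expression was profiled in DRGs, where sensory neurons have their cell bodies, taken directly from mouse embryos at E13.5. There were 5 WT pools and 5 Lkb1 KO pools, each with DRGs from 2 embryos on 1 array, so that n counts pools. In Lkb1 KO embryos the floxed Lkb1 gene (symbol Stk11) was deleted by Cre under Wnt1 regulatory sequences, which are active in the neural crest, from which DRG neurons and glia come, as well as in parts of the central nervous system. The WT embryos were littermates on a mixed background, and whether they carried Cre or floxed alleles was not stated. The values are log2 RMA expression levels as deposited.

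Vessels grow into and around the ganglia from outside. Endothelial cells of the trunk arise from mesoderm, not from the neural crest, so that the Wnt1-Cre line targets the cells around them and not the endothelium itself. In a whole ganglion the level of an endothelial gene follows both the number of endothelial cells in the pool and the amount of that RNA in each cell, and fewer cells of a type and less RNA per cell cannot be told apart in these data. Kdr and Flt1 encode the VEGF receptors, Tek and Tie1 the receptor tyrosine kinases of the angiopoietin system, Cdh5 the cadherin of endothelial adherens junctions and Cldn5 the main claudin of endothelial tight junctions. Pecam1 and Esam encode adhesion molecules at the contacts between endothelial cells, and Emcn and Cd34 encode sialomucins of the cell surface. Several of these genes are not confined to endothelium. Cd34 and Tek, for example, are also known from blood stem cells, and Pecam1 and Esam from platelets. Other sources are not listed here.

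Stk11 was at 7.68 to 7.94 in Lkb1 KO and at 8.51 to 9.08 in WT (-0.92 on the log2 scale, adjusted p = 1.15e-04 from limma). Which part of the transcript its probe set reads is not known here. The sex of the embryos was not balanced between the genotypes. Lkb1 KO replicates 2 and 5 had low levels of Eif2s3y, a gene of the Y chromosome (4.66 and 4.90), beside Xist at 12.36 and 12.37. In the other 8 pools, which include all 5 WT pools, Eif2s3y ran from 9.75 to 10.70. Of 16 measured sensory neuron markers 15 had a mean level above 6.5, as did all 10 endothelial markers, so that both tissues were represented in the pools. Over all genes, 771 (3.87%) passed an adjusted p under 0.05 from limma, 496 (2.49%) of them higher and 275 (1.38%) lower in Lkb1 KO.

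The regions just upstream of the start sites are shown for Cldn5 and for Kdr, Emcn and Flt1, whose levels followed the other markers most closely among the members with an entry (r from 0.86 to 0.94, described further on). RefSeq gave promoter sequences (build GRCm38.p6) for 7 of the 10 genes. The 250 bases before the start site were searched on both strands for short runs of letters known from sites of endothelial regulators. These were AGGAAG for factors of the ETS family and ACAAT for the SOX family. The letters AGATAA stood for the family of zinc finger factors named after its GATA core. The letters TATAAA stood for the box of that name near some start sites. Matches are in capitals and did not overlap. The windows lie at chr16:18776597-18776846 on the forward strand, chr5:75978456-75978705 on the reverse strand, chr3:137340828-137341077 on the forward strand and chr5:147726012-147726261 on the reverse strand, and each reads 5′ to 3′ along its gene.
Cldn5: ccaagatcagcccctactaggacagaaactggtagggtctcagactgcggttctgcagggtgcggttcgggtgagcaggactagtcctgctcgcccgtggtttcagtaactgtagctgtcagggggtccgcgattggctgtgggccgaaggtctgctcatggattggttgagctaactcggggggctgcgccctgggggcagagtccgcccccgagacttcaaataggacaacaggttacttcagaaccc
Kdr: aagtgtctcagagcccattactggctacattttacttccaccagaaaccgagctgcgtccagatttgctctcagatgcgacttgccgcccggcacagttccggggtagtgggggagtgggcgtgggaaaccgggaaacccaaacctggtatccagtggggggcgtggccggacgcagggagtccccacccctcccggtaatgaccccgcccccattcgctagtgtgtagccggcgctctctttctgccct
Emcn: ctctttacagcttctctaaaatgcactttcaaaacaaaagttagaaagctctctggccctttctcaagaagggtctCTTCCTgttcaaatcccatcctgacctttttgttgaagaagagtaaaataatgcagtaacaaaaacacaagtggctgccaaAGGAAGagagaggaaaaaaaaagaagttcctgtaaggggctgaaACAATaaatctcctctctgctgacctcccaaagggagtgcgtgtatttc
Flt1: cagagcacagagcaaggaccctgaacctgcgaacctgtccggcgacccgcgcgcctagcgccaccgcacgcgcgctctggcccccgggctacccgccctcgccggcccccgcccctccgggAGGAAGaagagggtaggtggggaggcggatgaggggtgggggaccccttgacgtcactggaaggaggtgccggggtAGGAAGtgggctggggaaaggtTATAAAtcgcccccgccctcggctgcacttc
The Cldn5 and Kdr windows held none of the 4 sets of letters. Emcn and Flt1 each held AGGAAG 2 times, and Flt1 also held TATAAA, beginning 31 bases before its start site. Over the 7 windows AGGAAG stood in 4 and ACAAT in 3, against 29.5% and 27.7% of the 32851 promoters in the table. A match of such short letters is a description of the sequence.

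Cldn5 was higher in Lkb1 KO DRGs than in WT DRGs, and it was the only one of the 10 markers that passed the test across all genes. In WT replicates 1 to 5 it was at 7.54, 7.35, 7.31, 7.44 and 7.45, and in Lkb1 KO replicates 1 to 5 at 7.80, 7.61, 7.71, 7.76 and 7.69. All 5 Lkb1 KO pools lay above all 5 WT pools, a separation that 3.09% of all genes showed in this direction and 2.24% in the other (5.34% together). The WT mean of 7.42 ± 0.09 (SD, n = 5) compared with a mean of 7.71 ± 0.07 (SD, n = 5) for the Lkb1 KO pools. The difference of 0.29 on the log2 scale had a standard error of 0.05 and a 95% confidence interval from 0.19 to 0.40, which corresponds to a 1.23-fold level (1.14 to 1.32). Its adjusted p was 0.00532 in limma. The exact two-sided permutation test over all assignments of the pools gave p = 0.00794, the smallest it can give. Between pools of the same replicate number the difference ran from 0.24 to 0.39. With the level of Y-linked genes added to the fit, Cldn5 was higher by 0.34 (adjusted p = 0.0101 from limma).

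Kdr and Cd34 came next in size, and their groups overlapped. Kdr was at 9.08, 9.01, 8.94, 9.03 and 9.04 in WT replicates 1 to 5 and at 9.40, 9.17, 9.01, 9.18 and 9.18 in Lkb1 KO replicates 1 to 5. Lkb1 KO replicate 3 lay among the WT pools and the other 4 Lkb1 KO pools above them. Its log2 fold change was 0.17 (95% confidence interval 0.04 to 0.30), with an adjusted p of 0.183 from limma. Cd34 was at 9.90, 9.76, 9.74, 9.82 and 9.80 in WT and at 10.17, 9.97, 9.89, 10.08 and 9.84 in Lkb1 KO, where 3 pools lay above all WT pools. Its log2 fold change was 0.19 (95% confidence interval 0.06 to 0.32), with an adjusted p of 0.126 from limma. The labels number the replicates 1 to 5 in both genotypes, and with that number as a block both genes passed the test (adjusted p = 0.0490 for Kdr and 0.0324 for Cd34 from limma), so that 3 of the 10 markers were called as higher, against 3.59% of all genes in that fit (2.83% were lower, 6.42% in all). In each of Cldn5, Kdr and Cd34 the Lkb1 KO pool was the higher one in 5 of 5 pairs.

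**Figure D1:**
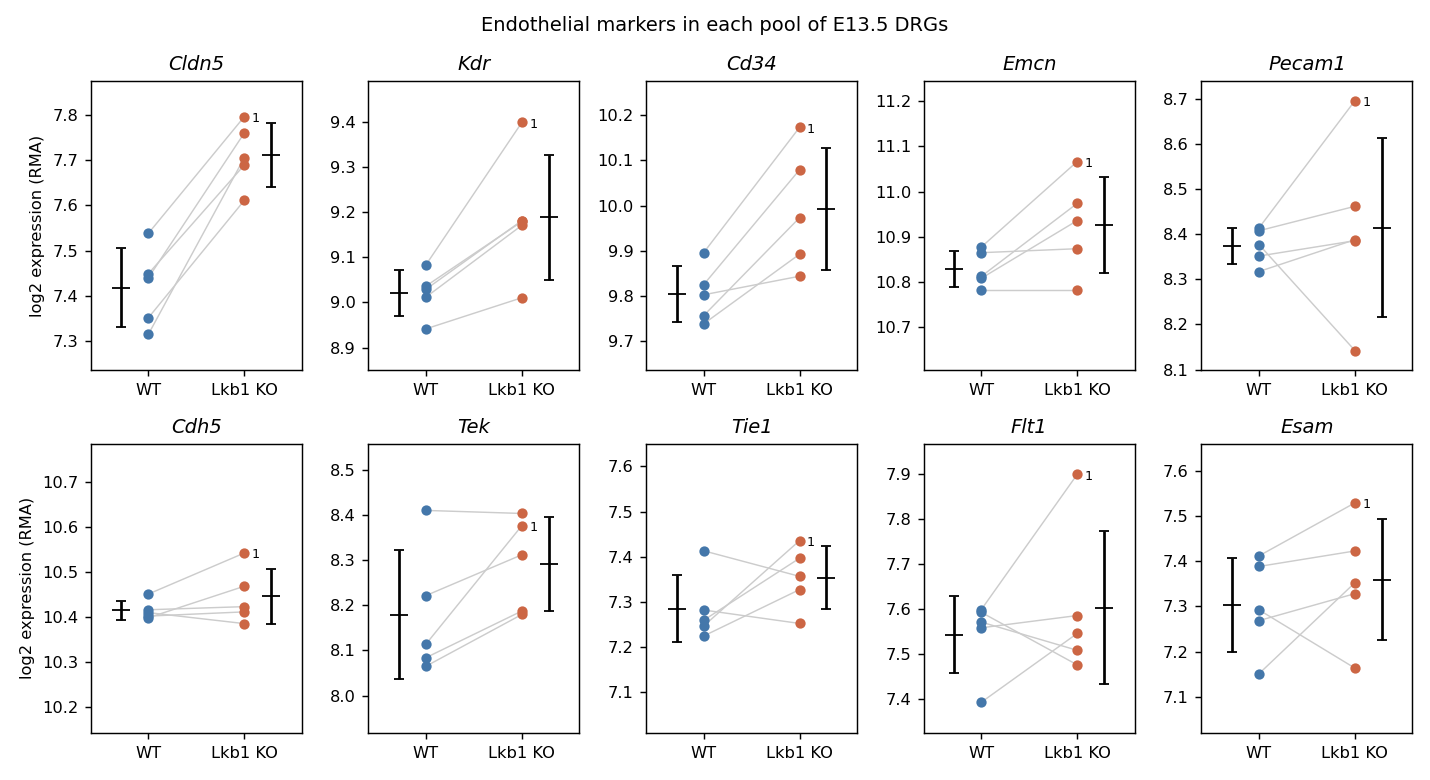
Log2 expression (y axis, each spanning the same range) of the 10 endothelial markers in each WT (blue) and Lkb1 KO (orange) pool, with grey lines joining pools of the same replicate number and black bars giving the mean and SD of 5 pools; the digit marks Lkb1 KO replicate 1. The groups do not overlap for Cldn5 and overlap for the other 9 genes, and Lkb1 KO replicate 1 is the highest Lkb1 KO pool in all but Tek.

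The angiopoietin receptor genes and Flt1 overlapped between the groups. Tek was at 8.11, 8.08, 8.06, 8.22 and 8.41 in WT and at 8.38, 8.19, 8.18, 8.31 and 8.40 in Lkb1 KO (log2 fold change 0.11, 95% confidence interval -0.04 to 0.26). WT replicate 5 was its highest pool, the only case among the 10 genes in which a WT pool stood at the top. Tie1, the orphan receptor that pairs with the product of Tek, was at 7.25, 7.22, 7.28, 7.41 and 7.26 in WT and at 7.44, 7.33, 7.25, 7.36 and 7.40 in Lkb1 KO (0.07, -0.03 to 0.17). Flt1, the VEGF receptor that also exists as a soluble decoy, was at 7.60, 7.39, 7.59, 7.57 and 7.56 in WT and at 7.90, 7.55, 7.48, 7.51 and 7.59 in Lkb1 KO. Its mean in Lkb1 KO exceeded that in WT through replicate 1 alone. The log2 fold change of 0.06 (95% confidence interval -0.10 to 0.22) became -0.014 without that pool.

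The junction and surface genes differed little. Cdh5 had the narrowest spread of the 10 genes, at 10.45, 10.40, 10.41, 10.40 and 10.42 in WT and 10.54, 10.47, 10.39, 10.41 and 10.42 in Lkb1 KO. Its log2 fold change was 0.030, and the 95% confidence interval of -0.05 to 0.11 leaves out a change as large as that estimated for Cldn5. So do the intervals of Pecam1, Esam, Emcn, Tek, Tie1 and Flt1, while those of Kdr and Cd34 include it. The interval of Cldn5 itself, 0.19 to 0.40, overlaps those of all but Cdh5 and Tie1. These intervals do not test a difference between genes. Pecam1 had the widest spread, at 8.41, 8.41, 8.38, 8.32 and 8.35 in WT and 8.70, 8.46, 8.14, 8.39 and 8.39 in Lkb1 KO. Its Lkb1 KO pools held both the highest and the lowest value of all 10 pools, and its log2 fold change of 0.041 (95% confidence interval -0.13 to 0.21) became -0.029 without Lkb1 KO replicate 1. Esam was at 7.41, 7.15, 7.27, 7.29 and 7.39 in WT and 7.53, 7.35, 7.33, 7.16 and 7.42 in Lkb1 KO (0.06, -0.09 to 0.20). Emcn was at 10.88, 10.81, 10.78, 10.81 and 10.86 in WT and 11.07, 10.94, 10.78, 10.97 and 10.87 in Lkb1 KO (0.10, -0.01 to 0.21), with the pools of replicate 3 at the same level. The adjusted p from limma was between 0.401 and 0.874 for these 4 genes and for Tek, Tie1 and Flt1.

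Taken as a list, 1 of the 10 markers was called as higher and 0 as lower (adjusted p under 0.05 from limma), with 3 higher at an unadjusted p under 0.05 against 7.51% of all genes, and 0 lower against 7.77%. All 10 had a higher mean in Lkb1 KO, as had 49.1% of all genes, and their median log2 fold change was 0.08 against -0.0017 over all genes. The 10 genes were measured in the same pools, and their levels are not independent of each other. The mean over the 10 genes, used here as an index of vessel content, was at 8.66, 8.56, 8.58, 8.63 and 8.65 in WT replicates 1 to 5 and at 8.89, 8.70, 8.62, 8.71 and 8.72 in Lkb1 KO replicates 1 to 5. It was higher in Lkb1 KO by 0.11 on the log2 scale, with Lkb1 KO replicate 3 inside the range of the WT pools. Without Lkb1 KO replicate 1 the difference was 0.071. The index includes Cldn5, and the mean of the other 9 genes was higher in Lkb1 KO by 0.09.

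**Figure D2:**
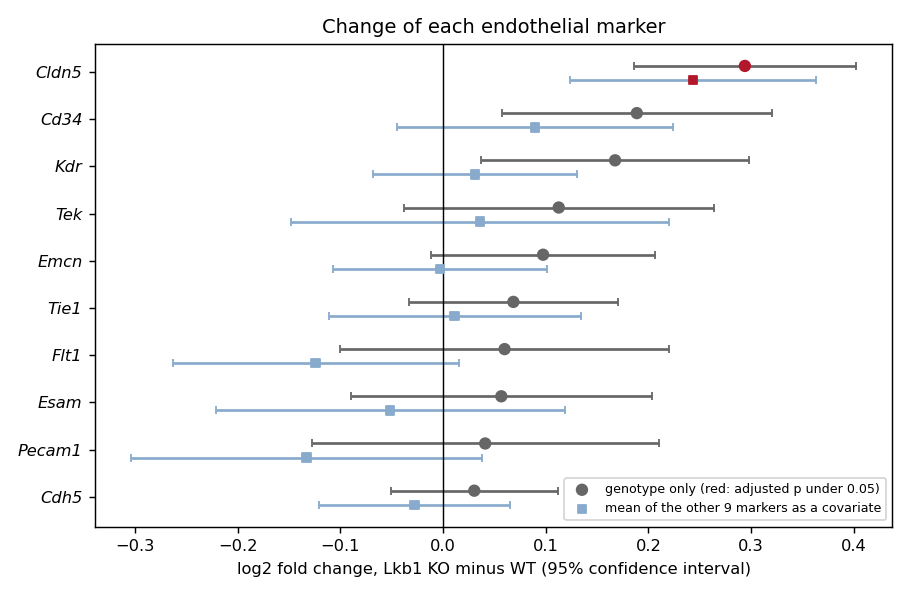
Difference between Lkb1 KO and WT (x axis, log2 fold change) of each endothelial marker (y axis) with its 95% confidence interval from limma, with genotype alone (circles) and with the mean of the other 9 markers as a covariate (squares); red marks an adjusted p under 0.05. Cldn5 is red in both fits, at 0.29 and 0.24, and the other 9 genes are red in neither.

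Cldn5 was then set against the other 9 markers within each pool. Cldn5 minus their mean was -1.25, -1.34, -1.40, -1.33 and -1.34 in WT replicates 1 to 5 and -1.22, -1.21, -1.01, -1.06 and -1.15 in Lkb1 KO replicates 1 to 5. The 2 ranges did not overlap, and the group means differed by 0.20 on the log2 scale. The ranges of Cldn5 alone did not overlap either. How often other genes separate against this mean was not counted. The difference between the genotypes in Cldn5 relative to the rest was largest in replicate 3 (0.39, against 0.034 to 0.27 in the other pairs). There the mean of the other 9 genes was 8.72 in both genotypes, while Cldn5 was at 7.31 in WT and 7.71 in Lkb1 KO. In replicate 1, where the other 9 genes were much higher in Lkb1 KO (9.01 against 8.79), the difference from WT in Cldn5 relative to them was 0.034. With the mean of the other 9 genes as a covariate in the fit across all genes, Cldn5 was higher by 0.24 on the log2 scale (adjusted p = 0.0433 from limma, with a standard error of 0.05), in a fit that called 1.53% of all genes as higher and 0.767% as lower (2.3% in all). Each of the other 9 genes, fitted with the mean of its own 9 partners, had a smaller estimate than before, from -0.13 for Pecam1 to 0.09 for Cd34 (adjusted p between 0.483 and 0.989 from limma). Those partners include Cldn5, so that the covariates are not alike. All 10 markers had a higher mean in Lkb1 KO, and each covariate takes up part of that difference. The estimate of Cldn5 also fell, from 0.29, and a smaller estimate by itself does not set the other 9 genes apart from it.

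**Figure D3:**
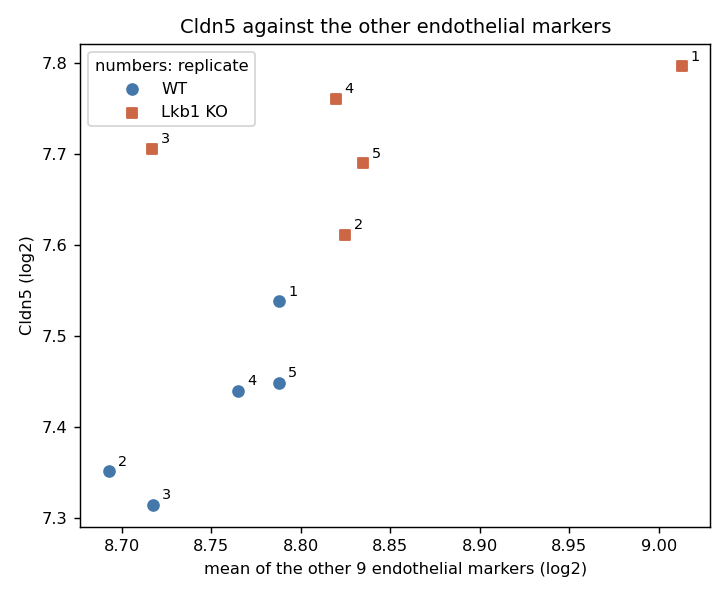
Cldn5 (y axis, log2) against the mean of the other 9 endothelial markers (x axis, log2) in each WT (blue circles) and Lkb1 KO (orange squares) pool, numbered by replicate. Lkb1 KO replicate 3 has the same mean of the other genes as WT replicate 3, 8.72, and a Cldn5 level of 7.71 against 7.31, the largest difference of any same-numbered pair.

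The markers rose and fell together from pool to pool, to a large part through 1 pool. After each genotype's mean was subtracted, Lkb1 KO replicate 1 lay above its genotype mean in 10 of 10 genes and replicate 3 below it in 10 of 10. Lkb1 KO replicate 1 also held the highest value of all 10 pools in 9 genes. Its median over all probe sets was the lowest of all. The alignment used medians over the 19938 genes instead, and moved the index of this pool from 8.89 down to 8.87. The other Lkb1 KO pools were then at 8.62 to 8.76. Among WT pools, replicate 2 was below its genotype mean in 9 genes, replicate 3 in 8, and replicate 1 above it in 8. The pooled SD within genotype ran from 0.05 for Cdh5 to 0.14 for Pecam1, around a median of 0.08 over the 10366 genes with a mean above 6.5.

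**Figure D4:**
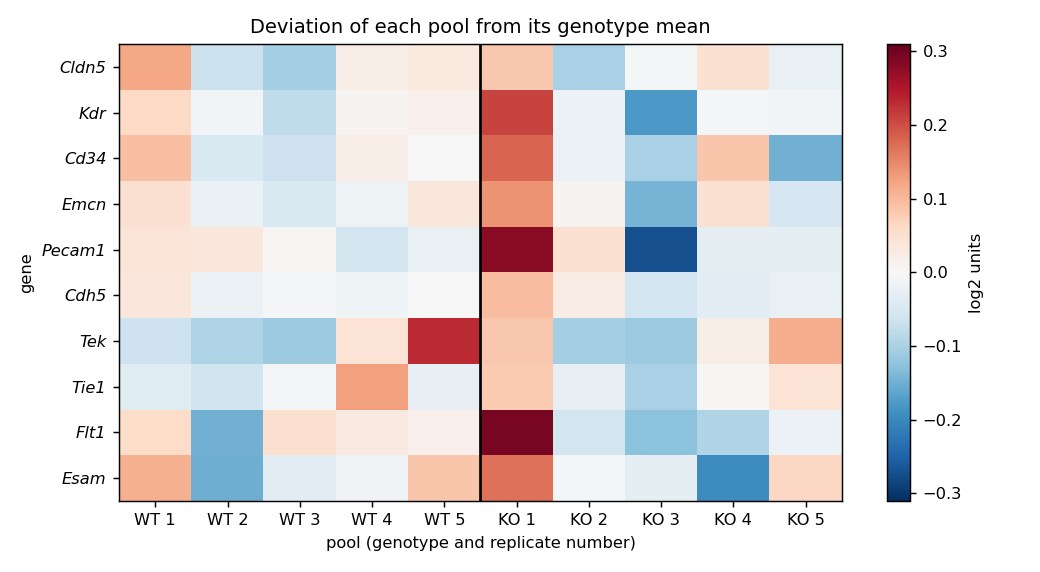
Deviation in log2 units (colour) of each WT and Lkb1 KO pool (x axis, KO for Lkb1 KO) from the mean of its genotype for the 10 endothelial markers (y axis). Lkb1 KO replicate 1 is above its genotype mean in all 10 genes and replicate 3 below it in all 10, while WT pools deviate less evenly.

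Of the 45 pairs of markers, 45 had a positive Pearson's r over the 10 pools, with a median of 0.54 and a range from 0.19 to 0.93. In a permutation test with 100000 resamples, adjusted over the 45 pairs, 10 pairs passed 0.05 by r and 3 by Spearman's rho. The resamples moved the deviations freely across genotypes. Within a genotype the deviations are tied to its mean, and spreads differ (Pecam1 SD 0.04 in WT and 0.20 in Lkb1 KO), so that these p-values can come out too small. The closest pair was Kdr and Emcn (r = 0.93, permutation p = 7.80e-04, adjusted p = 0.0134; rho = 0.85, permutation p = 0.00279, adjusted p = 0.0467). Cd34 and Emcn followed more evenly (r = 0.88, permutation p = 8.90e-04, adjusted p = 0.0134; rho = 0.95, permutation p = 6.00e-05, adjusted p = 0.0027). Without the 2 pools farthest from the median, which for both pairs included Lkb1 KO replicate 1, r was 0.65 for Kdr and Emcn and 0.85 for Cd34 and Emcn. For Kdr and Pecam1 it fell to 0.07 from 0.91, so that this relation rested on those pools. Without Lkb1 KO replicate 1 the median r over the 45 pairs was 0.31, with 40 positive, and without Lkb1 KO replicates 1 and 3, a choice made after seeing the data, it was 0.18, with 33 positive. Groups of 5 pools are too few to give r within a genotype.

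Against the mean of the other 9 genes, Kdr followed most closely (r = 0.94), and 0.0193% of the 10356 other genes with a mean above 6.5 had as high an r with the same mean. Cdh5 (0.87), Emcn (0.87) and Flt1 (0.86) had shares of other genes from 0.261% to 0.309%. Tek followed least (0.44), with 17.7% of other genes as high, and Tie1 (0.56), Cldn5 (0.56) and Esam (0.60) had 8.23%, 7.46% and 5.10%. Without Lkb1 KO replicate 1, r was 0.83 for Kdr, 0.73 for Emcn and 0.59 for Cdh5, with 0.261%, 0.734% and 2.56% of other genes as high, and between 0.29 and 0.56 for the remaining 7. The 9 pairs that hold Cldn5 had a median r of 0.44, and the other 36 a median of 0.59, and 0 of the 9 passed the adjusted threshold. All points share the same 10 arrays, and these values describe them.

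The genes outside the list whose deviations were most like the mean of the 10 markers were, in order of r, Cav1 (0.96), Dock10 (0.95), Slc2a1 (0.92), Slc38a3, Slc6a13, Zfp709, Robo4 and Pid1 (all 0.91). Cav1 encodes the caveolin of endothelial caveolae, Robo4 an endothelial roundabout receptor and Slc2a1 the glucose transporter of barrier endothelium, while Dock10 encodes a guanine nucleotide exchange factor for small GTPases. Without Lkb1 KO replicate 1 their r ran from 0.69 to 0.89. Dock10 and Slc2a1 also differed between the groups, in opposite directions. Dock10 fell by 0.66 and Slc2a1 rose by 0.34 on the log2 scale (adjusted p = 9.70e-04 and 0.00938 from limma). At the other end stood Zfp553 (-0.93), the Hedgehog receptor gene Ptch1 (-0.92), Gatad2b (-0.92) and Setd5 (-0.92).

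Other endothelial and vascular genes were taken from 5 lists, and of their 93 measured genes 8 (8.60%) rose and 0 fell at an adjusted p under 0.05 from limma, against 2.49% and 1.38% of all genes. With the replicate block 14 rose and 0 fell, against 3.59% and 2.83% of all genes. Their median log2 fold change was 0.06, and 68 of the 93 had a higher mean in Lkb1 KO, against 49.1% of all genes. Of 19 transcription factor genes of endothelium 1 rose, Nr2f2, which encodes a factor of venous identity (0.22). Fli1, an ETS factor gene, had 0.21 (adjusted p = 0.0580, and 0.0442 with the replicate block), and Sox18 -0.0020. Bcl6b had 0.20 (adjusted p = 0.0518, and 0.0592 with the block, from limma). Lmo2 had -0.13 (adjusted p = 0.290 from limma). Of 14 genes of VEGF and angiopoietin ligands and co-receptors 2 rose, the semaphorin and VEGF-C co-receptor gene Nrp2 (0.27) and the ligand gene Vegfd (0.16), while Nrp1 had -0.07. The ligand gene Pgf had -0.15 (adjusted p = 0.120, and 0.0632 with the block, from limma). Of 31 other endothelial surface and signalling genes 1 rose, the adhesion gene Mcam (0.59), which is also a marker of pericytes. Calcrl, the receptor gene of adrenomedullin, had 0.26 (adjusted p = 0.0987, and 0.0167 with the block), Robo4 0.05 and Plvap, of fenestrated endothelium, -0.0046. Of 14 arterial, venous and Notch genes 2 rose, the Notch ligand gene Jag1 (0.78) and the Notch target gene Hey2 (0.15).

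Of 15 genes of tight junctions and the barrier 2 rose, against 2.49% of all genes. They were Slc2a1 and the scaffold gene Tjp1 (0.15), which encodes the ZO-1 partner of claudins. With the replicate block 5 were called as higher, against 3.59% of all genes. The block added the junction genes F11r (adjusted p = 0.0166 from limma) and Jam2 (0.0127) and the transporter gene Slco1c1 (0.0375). Of the 8 called genes of these 5 lists, r of the deviations with the index over 10 pools was positive for Slc2a1 (0.92), Hey2 (0.66) and Mcam (0.27). It was negative for Vegfd (-0.26), Tjp1 (-0.32), Nr2f2 (-0.33), Nrp2 (-0.47) and Jag1 (-0.50). Ocln, the gene of occludin, was at a mean of 5.08 in WT and had a log2 fold change of 0.024. Of 19 claudin genes other than Cldn5, 3 had a mean above 6.5, and 0 were called by limma (2 had an unadjusted p under 0.05). The 3 were Cldn1 (0.34, adjusted p = 0.138, and 0.00285 with the replicate block), Cldn11 (0.07) and Cldn12 (0.025). Of 5 measured lymphatic markers 1 rose, Reln (0.37), the gene of a matrix glycoprotein that many other cells secrete, while Prox1 had -0.22, Lyve1 0.15 and Flt4 0.05.

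Markers of other cell types also differed between the groups, and their levels are given beside the change of Cldn5. Over all genes 2.49% were called as higher and 1.38% as lower, and 3.59% and 2.83% with the replicate block. Of 18 pericyte and mural markers 4 rose (Mcam, Heyl, Anpep and Foxf2) and 0 fell, with Pdgfrb and Kcnj8 added by the replicate block (6 in all), and 8 had a mean at or under 6.5. The mean level of this list ran from 6.77 to 6.84 in WT and from 6.92 to 7.06 in Lkb1 KO pools. Of 16 fibroblast and mesenchyme markers 10 rose and 0 fell, and their mean level ran from 8.42 to 8.54 in WT and from 8.68 to 8.74 in Lkb1 KO. Of 16 sensory neuron markers 3 fell and 0 rose (7 fell with the replicate block, with Ret, Runx3, Avil and Ntrk2 added), with mean levels from 9.75 to 9.90 in WT and from 9.57 to 9.73 in Lkb1 KO. As with Cldn5, none of these 3 means overlapped between the genotypes, a separation that 5.34% of single genes showed. That share is not a background for means over a list. The mean of the arterial, venous and Notch genes did not overlap either (7.562 to 7.646 in WT and 7.648 to 7.754 in Lkb1 KO). The part of these lists in the differences of Cldn5, Cd34 and the other markers was not tested.

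Blood cells share some of the 10 markers. The counts here stand beside the same shares of all genes, 2.49% called as higher and 1.38% as lower (15.3% in all before adjustment). Of 18 macrophage markers 0 were called in limma (also 0 before adjustment, at p under 0.05), and their mean level ran from 6.16 to 6.28 in WT and from 6.21 to 6.30 in Lkb1 KO. Of 14 erythroid and platelet markers 0 were called (2 before adjustment), with mean levels from 6.55 to 6.81 in WT and from 6.63 to 6.87 in Lkb1 KO. Of 11 haematopoietic progenitor markers 1 fell, Kit (-0.30), which sensory neurons and melanoblasts also express, and 9 had a mean at or under 6.5. Lkb1 KO replicate 1 was the lowest Lkb1 KO pool of the erythroid and platelet list, at 6.63, and the highest of the pericyte list, at 7.06. Of 10 measured Schwann and satellite glia markers 1 rose, the hedgehog ligand gene Dhh (0.69), and 2 fell, Cdh19 and Ngfr, with mean levels from 9.59 to 9.65 in WT and from 9.56 to 9.62 in Lkb1 KO.

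**Figure D5:**
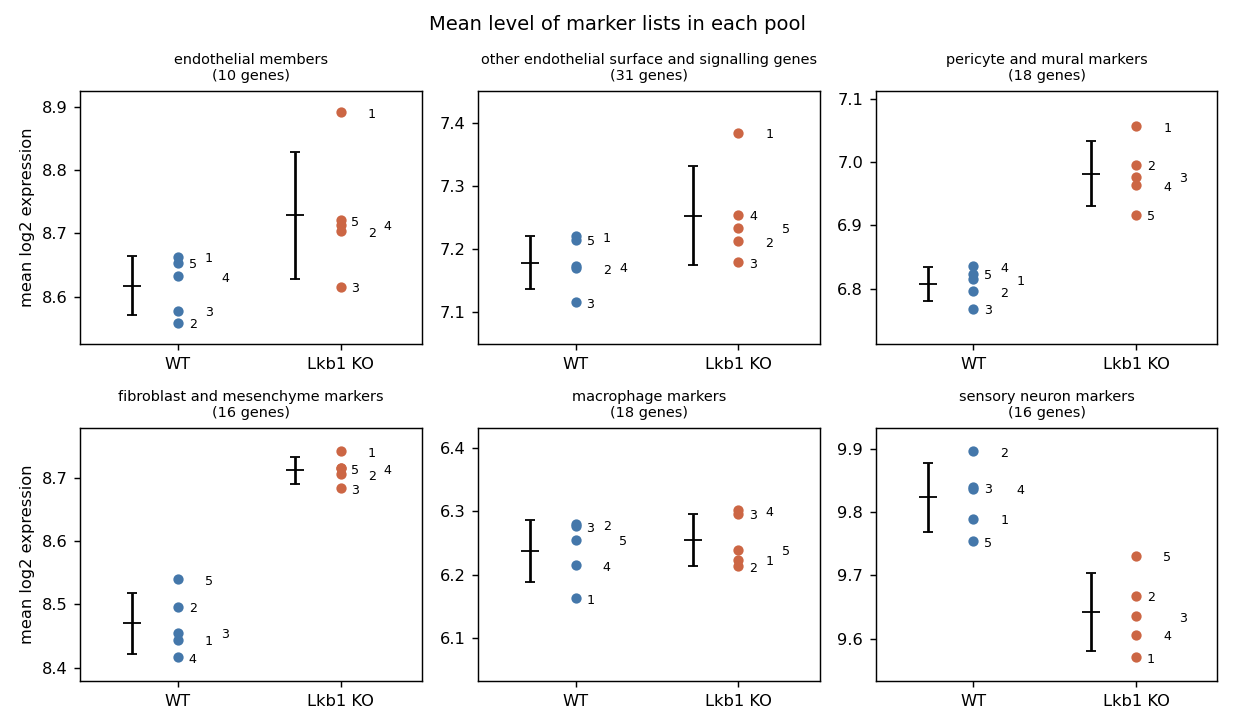
Mean log2 expression (y axis, each spanning the same range) of 6 marker lists in each WT (blue) and Lkb1 KO (orange) pool, numbered by replicate, with the mean and SD of 5 pools as black bars. The groups do not overlap for the pericyte, fibroblast and sensory neuron lists and overlap for both endothelial lists shown and the macrophage list.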

How the data were processed

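Expression was measured on one-colour Affymetrix Mouse Gene 1.0 ST arrays in 5 WT and 5 Lkb1 KO pools, with 250 ng of total RNA per array. The authors deposited log2 values of 35556 probe sets, made with RMA in Partek 6.6 as far as the submitters' notes tell, and analysed them in MATLAB at a false discovery rate of 0.01. RMA quantile-normalizes arrays and compresses changes of dim genes, and no detection call or scanner file was used here. No genome build is named with the values.

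Of these, 21789 probe sets had a single gene in the platform annotation, 1621 had more and 12146 had none there, and 21698 of the first had an identifier in RefSeq (GRCm38.p6), used for names. For genes with several probe sets the one with the highest mean over the 10 arrays was taken. Genotypes were compared by two-sided tests from lmFit and eBayes (limma 3.58.1, R 4.3.3), adjusted after Benjamini-Hochberg over 19938 genes and called under 0.05. The fit was tested on simulated data. Other steps used Python 3.11.15, pandas 2.3.3, numpy 2.4.6 and scipy 1.17.1. Correlations were taken on deviations from the genotype mean. The number of arrays limits the precision. The labels call the pools biological replicates and give no source for them, so that p-values measure the spread between these pools.

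Deviations of same-numbered pools had correlations of 0.21 to 0.48 over all genes, and the numbers were therefore used as pairs. Their meaning is not stated in the labels, and differently numbered pools had -0.48 to 0.31. WT replicate 5 was closer to Lkb1 KO replicate 4 (0.31) than to Lkb1 KO replicate 5 (0.24). Over the 10 markers alone the same-numbered pools had 0.31, 0.56, -0.28, 0.19 and 0.65 for replicates 1 to 5, so that the pairing held less evenly for the markers.

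The members and lists were chosen with earlier results of these data known. Genes were named by rule: all members, the called genes and up to 3 others of each list, the 8 genes most and 4 least like the mean of the markers, and the promoters of Cldn5 and up to 3 members most like the others. Other genes, among them Sox18, Lmo2, Nrp1, Plvap, Ocln, Prox1, Lyve1, Flt4 and the genes added by the block, were chosen after their values were seen. Alternatives were array medians aligned, cyclic loess, the dimmest 30% left out, the mean of probe sets, array weights, a robust prior with a trend on intensity, the replicate block, a Y-linked covariate, a one-way analysis of variance, the mean of the other markers as a covariate and each pool left out in turn.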

Additional observations from a re-analysis of the deposited data

Results flagged for a closer look

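In each of 26 groups of 5 pools, one for each marker or mean in each genotype, the highest or lowest pool was compared with its nearest neighbour. A pool stood apart in 2, both for Flt1, where chance gives about 1 in 20. WT replicate 2 was the lowest, at 7.39 against 7.56 for the nearest WT pool, a gap of 0.804 of the group's range. Lkb1 KO replicate 1 was the highest, at 7.90 against 7.59, a gap of 0.741 of the range.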

How the results depend on the processing

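Cldn5 stayed called as higher under all 21 alternatives, with a log2 fold change from 0.24 to 0.34 (adjusted p from 0.00191 to 0.0433), and it was the 1 marker called in all of them but the replicate block, which called 3. The block changed no other call of a marker. With the mean of the other markers as a covariate the direction turned for Emcn (-0.0027), Cdh5 (-0.028), Esam (-0.051), Flt1 (-0.12) and Pecam1 (-0.13), and without Lkb1 KO replicate 1 for Pecam1 (-0.029, up to 0.11 without Lkb1 KO replicate 3) and Flt1 (-0.014, up to 0.092 without the same pool), all without a call. Over all genes the 771 calls became 1280 with the replicate block, 475 with a Y-linked covariate, 387 with the one-way analysis of variance and 313 at an adjusted p under 0.01. With 1 pool left out they ran from 485 to 834, and were 504, 490 and 485 without WT replicates 2, 3 and 4. The difference of Cldn5 from the other 9 genes ran from 0.17 to 0.25 and that of the index from 0.071 to 0.14, the lowest without Lkb1 KO replicate 1. The median r over pairs of markers ran from 0.31 to 0.64 with 1 pool left out, the lowest again without Lkb1 KO replicate 1, and was 0.58 with the replicate block and 0.18 without Lkb1 KO replicates 1 and 3, which was added after seeing the data. The causes were not tested.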

Other observations

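The gene next to Cldn5 on chromosome 16 in the RefSeq annotation, chosen after the values were seen, is Cdc45, which encodes a factor of the DNA replication helicase. The annotated genes do not overlap. The WT pools had a Cdc45 mean of 6.79 ± 0.09 (SD, n = 5), against 7.05 ± 0.07 (SD, n = 5) for the Lkb1 KO pools. This difference of 0.25 on the log2 scale passed the test (adjusted p = 0.0126 from limma), beside 0.29 for Cldn5. Ufd1, the next measured gene on that side, had -0.06. Between the deviations of Cdc45 and Cldn5 from the genotype means, r was -0.24 over 10 pools.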
